A study of Homo sapiens with 8 samples.

Results

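The leukocyte integrin genes ITGAM, ITGAX, ITGAL, ITGAD, ITGB2 and ITGA4 were described through the open chromatin around them in U-937 cells. Every peak overlapping the body of one of these 6 protein-coding genes or the 50 kb on either side was taken (GENCODE release 44, hg38). Overlapping peaks of the 4 deposited lists were joined into regions, and 141 of the 161291 regions so formed lay in these windows, 19 of them in more than 1 window because ITGAM, ITGAX and ITGAD are neighbours on chromosome 16. Open chromatin was read by ATAC-seq, whose transposase inserts sequencing adapters where DNA is not covered by nucleosomes. U-937 is a single human line with monocytic features, labelled as acute myeloid leukaemia cells. Its cultures received DMSO alone as the vehicle, all-trans retinoic acid (ATRA) at 0.1 µM, Corin at 0.1 µM, or both compounds at 0.1 µM each, called the combination here, all for 24 h. The 4 groups held 2 samples each, and the labels do not say whether these were separate cultures. Each group came as 1 peak list pooled over its samples, so no value below has a spread between replicates, no difference was tested, and ratios describe these pooled lists.

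Integrins are paired surface receptors with an alpha and a beta chain, through which white blood cells hold on to vessel walls, to matrix and to the particles they engulf. ITGAM (CD11b), ITGAX (CD11c), ITGAL (CD11a) and ITGAD (CD11d) encode alpha chains that pair with the common beta chain ITGB2 (CD18), whereas ITGA4 (CD49d) pairs with ITGB1 or ITGB7 and binds VCAM1 and fibronectin. CD11b at the cell surface is a standard marker of myeloid maturation. ATRA is the ligand of the retinoic acid receptors and is known to drive maturation of myeloid leukaemia cells, and Corin inhibits the demethylase LSD1 and the deacetylases of the CoREST co-repressor complex.

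For each peak the deposited fold is its pileup, the reads stacked at the summit, over a local background, and both parts were solved from the fold and the deposited p. A region in both lists was compared by the ratio of its folds, divided by the median ratio over all regions shared by those lists. This centred fold ratio is taken as past the limit at 1.5 or more, or at 1/1.5 or less. The same was done with the pileups, since the local background near several of these genes moved together with the pileup. Intervals are 95% and cover counting error only. Where 4 values stand in a row they follow the order DMSO, ATRA, Corin, combination. A region that is not called is below its list's threshold, which is not the same as without signal. In bulk chromatin, fewer cells with a region open and less opening per cell cannot be told apart.

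The labelled cell type was compared with the promoters of marker genes. Of 11 myeloid markers, 8 had a promoter region in DMSO, with folds from 2.07 (TYROBP) to 17.6 (CD33), while CD14, FCGR1A and MPO had none in any list. Over all coding genes 62.4% had a promoter region in DMSO. The median fold of those regions was 13.0, against 8.23 for the 8 myeloid ones. Of the T cell markers 2 of 5 were called in DMSO (CD4 and TCF7), of the B cell markers 1 of 4 (CD79A), of the erythroid markers 1 of 4 (GATA1), of the natural killer markers 1 of 2 (NCR1) and of the epithelial markers 1 of 3 (EPCAM). The last 3 were weak, at folds of 2.16, 3.19 and 2.46. For ATRA against DMSO, 5 of the 8 myeloid promoters had a centred pileup ratio (defined above) of 1.5 or more and 0 of 8 one of 1/1.5 or less, with a median of 1.62, where 3.6% and 4.54% of coding promoters did. By centred fold ratio 2 of 8 passed upward, CSF1R and TYROBP, and 0 downward, with a median of 0.948. A rise was not limited to myeloid markers. The B cell marker CD79A also passed upward for ATRA, at 1.93 in pileup and 1.75 in fold. The T cell markers CD4 and TCF7 stood at 1.05 and 0.916 in pileup and 0.654 and 0.966 in fold. GATA1, NCR1 and EPCAM were not called in ATRA. The part of these values in the integrin results was not tested. The lists differ in their median fold (3.47, 4.80, 3.32 and 3.68), so ratios between lists are given centred.

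Around the 6 genes, 110 regions were called in DMSO, 91 in ATRA, 90 in Corin and 89 in the combination. Of the 141 regions, 62 were called in all 4 lists (43.97%, against 41.1% of all regions). A further 17 were called in DMSO alone, 11 in ATRA alone, 8 in Corin alone and 5 in the combination alone. The shares of all regions called in a single list are not given here, so these counts are not set against a background. The lists differ in length, at 116563, 113914, 101851 and 94917 regions. By position, 47 lay within 1 kb of an annotated start of a coding transcript, 50 in introns, 8 in exons and 36 between genes. ITGA4 had the most regions, 41, of which 27 were intronic, and ITGAX the fewest, 19. ITGAM was called in 16, 16, 15 and 13 regions, and ITGB2 in 27, 25, 23 and 24. ITGA4 stood apart with 33 regions in DMSO against 18, 20 and 20 in the treated lists.

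**Figure D1:**
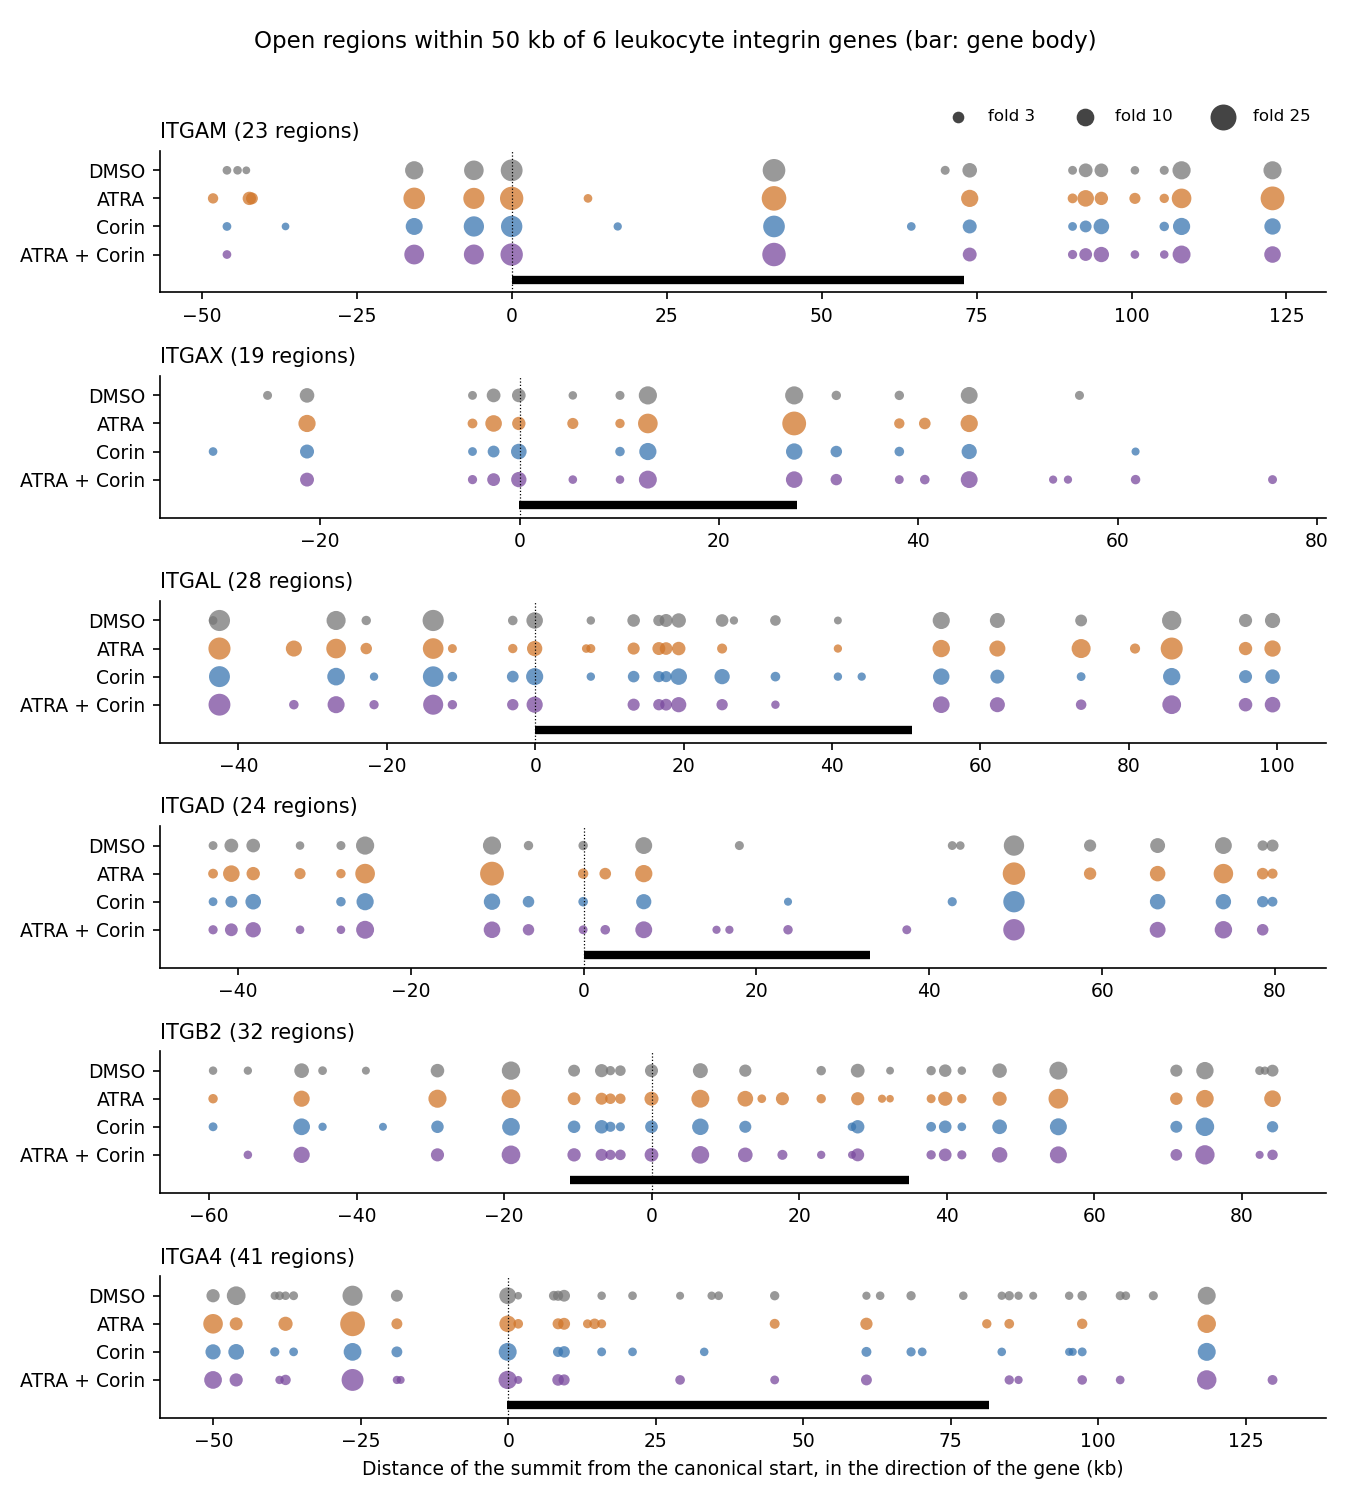
Open regions near each gene. The horizontal axis is the distance of the summit from the canonical start in kb, the rows are the 4 pooled lists, each circle is a called region with its area growing with the fold, and the black bar is the gene body. The strong regions sit at the same places in all 4 rows, while the small circles of ITGA4 are most frequent in the DMSO row.

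Against DMSO, 15 of the 91 ATRA regions were gained (23.3% of all ATRA regions were), and 34 of the 110 DMSO regions were lost (25.4% of all). With Corin 12 of 90 were gained (17.8% of all) and 32 of 110 lost (28.4% of all), and the combination had 12 of 89 gained (16.6% of all) and 33 of 110 lost (31.6% of all). Every one of these shares for the 6 genes together lay within counting error of the share over all regions. For the losses, ITGA4 lay above that share and each other gene below it, the intervals of those other genes including it. The ITGA4 interval lay above the share for ATRA and for Corin, but included it for the combination. When the combination was set against ATRA, 17 of 89 were gained (15.4% of all) and 19 of 91 lost (28.7% of all), and against Corin 20 of 89 were gained (20.4% of all) and 21 of 90 lost (25.1% of all). ITGA4 lost 18 of 33 DMSO regions with ATRA, 16 with Corin and 15 with the combination (54.5%, 48.5% and 45.5%, with intervals of 38.0 to 70.2%, 32.5 to 64.8% and 29.8 to 62.0%). Its DMSO regions were mostly weak, 24 of the 33 having a −log10 p under 20, and the strongest one lost in any treated list had 20.8. Among such weak regions ITGA4 lost 70.8% with ATRA, against 63.5% of all weak DMSO regions, 62.5% with Corin against 64.1%, and 58.3% with the combination against 69.9%.

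**Figure D2:**
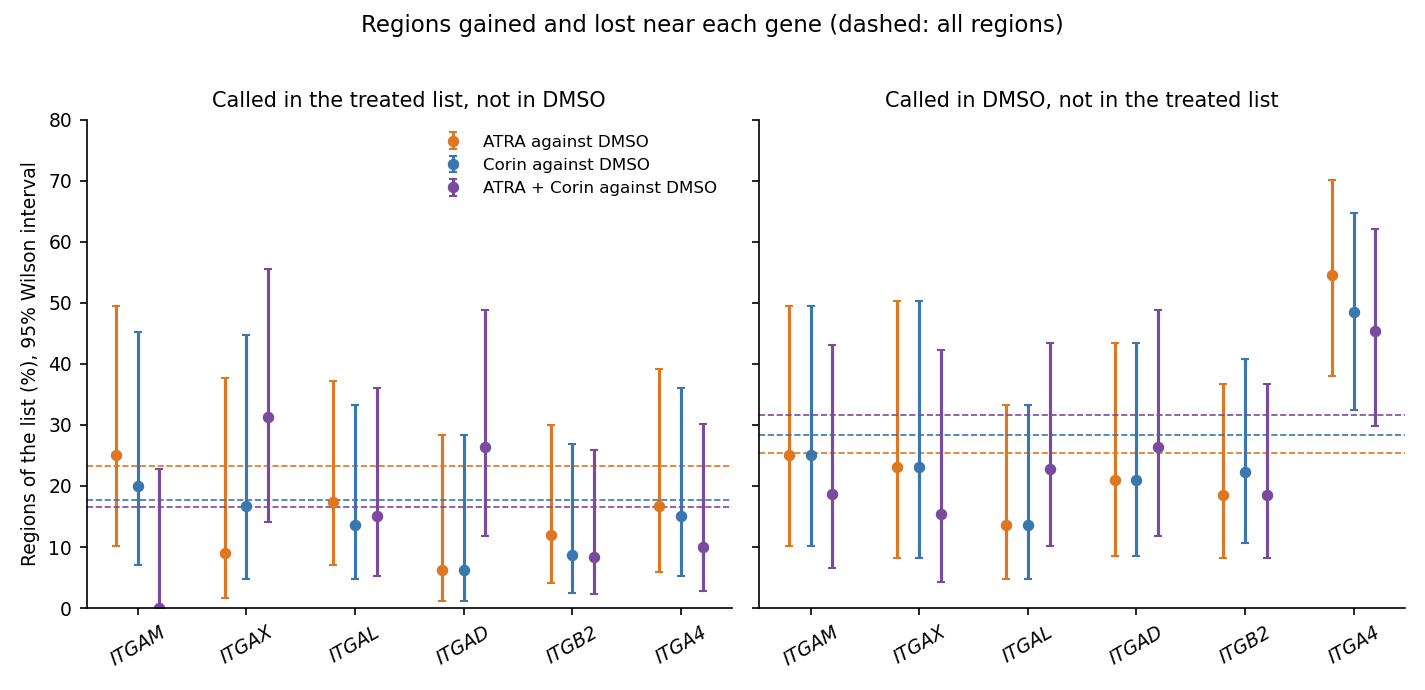
Regions gained and lost against DMSO near each gene. The vertical axis is the percentage of the list's regions near the gene, points are the 3 treated lists, bars are 95% Wilson intervals and dashed lines are the shares over all regions. The losses at ITGA4, 54.5%, 48.5% and 45.5%, lie above the dashed lines, the interval of the last including its line. The losses at the other genes lie below the lines, with intervals that include them.

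Of the regions in both lists, 8 of 76 passed the limit upward and 5 downward in fold for ATRA against DMSO, where 16.6% and 8.81% of all shared regions did. Corin against DMSO gave 4 and 2 of 78 (6.35% and 10.8% of all), and the combination 6 and 4 of 77 (8.27% and 12.1% of all). By pileup the counts were 12 and 12 of 76 for ATRA (18.3% and 16.4% of all), 8 and 3 of 78 for Corin (10.2% and 13.9%) and 10 and 17 of 77 for the combination (12.5% and 19.4%). The combination against ATRA gave 7 and 9 of 72 by fold (7.21% and 18.1%) and 9 and 7 by pileup (12.9% and 19.8%). Against Corin it gave 2 and 4 of 69 by fold (9.72% and 8.98%) and 8 and 6 by pileup (12.4% and 15.8%). For most of these counts the share over all regions lay inside the counting interval of the share for the 6 genes. It lay above the interval for Corin downward, in fold (upper bound 8.88%) and in pileup (10.7%), and for the combination against ATRA downward in pileup (18.7%), so fewer integrin regions were lower there than the background share. The results below are those of single regions. Positions were mostly stable: between DMSO and ATRA the summits of the 62 regions called in every list lay a median of 8 bp apart, against 9 bp over all such regions. Within 50 bp lay 91.9% for ATRA against DMSO (90.6% of all) and 85.5% for the combination against ATRA (90.4% of all). Single summits moved farther, by up to 301 bp for ATRA, 820 bp for Corin and 833 bp for the combination against DMSO.

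The promoter region, within 500 bp of the canonical start, was called for all 6 genes in all 4 lists. Of all coding genes, 60.4% (ATRA) to 62.4% (DMSO) had one in a given list. In DMSO the fold was highest for ITGAM at 20.8 (interval 19.3 to 22.3), followed by ITGA4 at 11.8 and ITGAL at 11.4, whose intervals overlap, then ITGAX at 7.40 and ITGB2 at 6.64, whose intervals also overlap, and ITGAD at 2.88. The ITGAM fold exceeded that of 98.6% of all DMSO regions. By −log10 p the order differed, since the ITGA4 region had a pileup of 2456 and was stronger than 99.6% of all DMSO regions, and the ITGAD region was stronger than 23.8%. Summits lay 11 to 127 bp upstream of the start in every list, and moved by at most 44 bp between the lists compared. Over all coding promoters shared by ATRA and DMSO the median centred fold ratio was 0.869 and the median centred pileup ratio 0.991, so promoters as a class stood lower in fold than in pileup after ATRA. No promoter of the 6 passed the limit in fold against DMSO for any treatment (for ATRA 2.4% of coding promoters passed upward and 3.61% downward, for Corin 1.32% and 1.09%, for the combination 2.25% and 1.26%). By pileup ITGAM passed upward for ATRA (3.6% of coding promoters did, and 4.54% downward) and ITGAX for Corin (3.58% upward, 1.66% downward) and for the combination (6.06% upward, 2.65% downward).

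**Figure D3:**
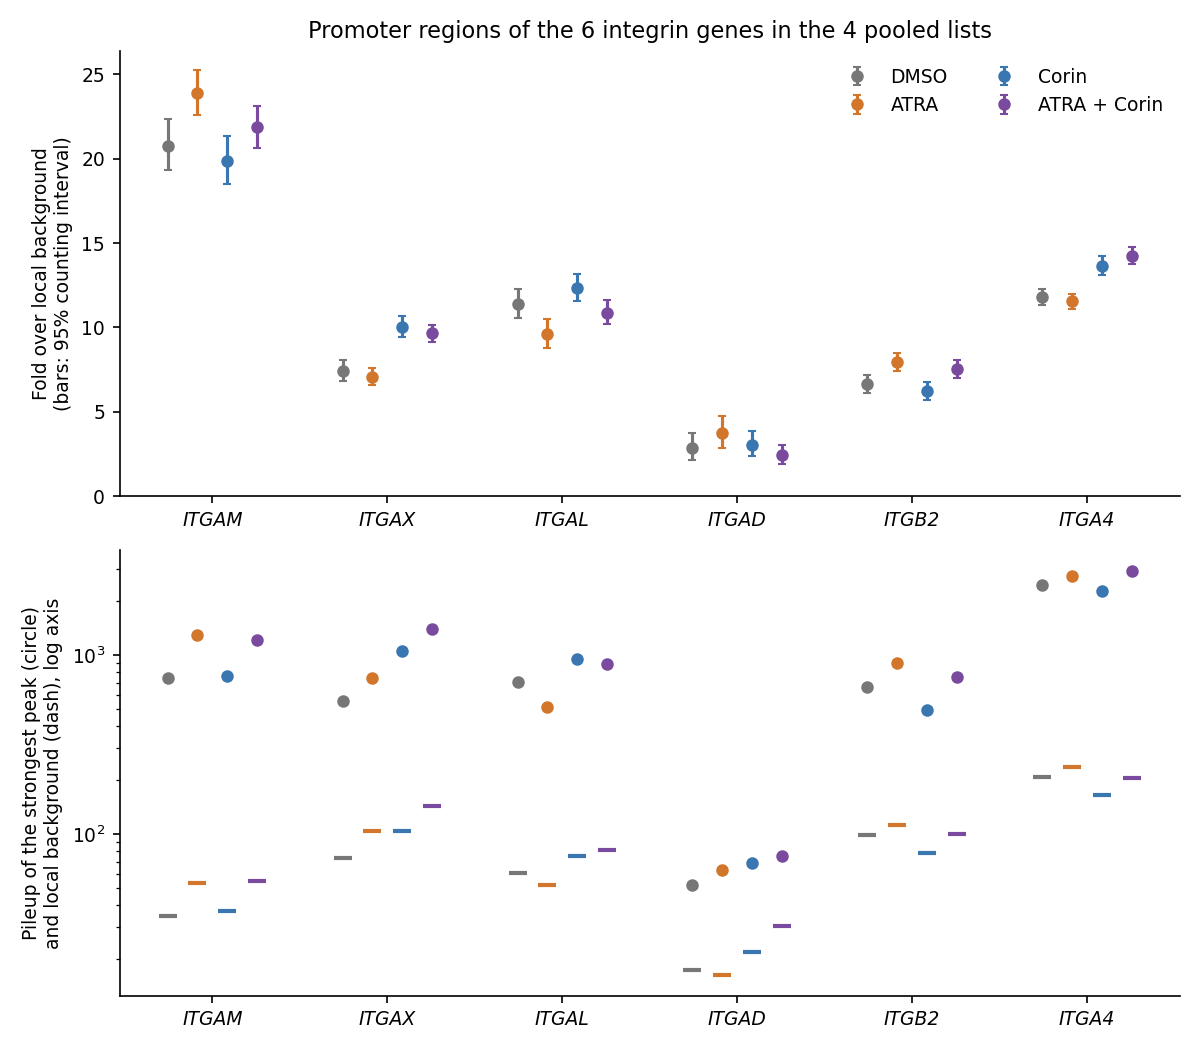
Promoter regions of the 6 genes in the 4 lists. The upper axis is the fold over local background with 95% counting intervals, and the lower axis, which is logarithmic, shows the pileup as circles and the local background as dashes. The ITGAM circles of ATRA and the combination, 1295 and 1210, stand above those of DMSO and Corin, 740 and 758, and their dashes are raised with them.

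ITGAM (ENSG00000169896.18, chr16:31259967-31332892, plus strand), the gene of CD11b, had a promoter pileup of 740 in DMSO, 1295 in ATRA, 758 in Corin and 1210 in the combination. Both lists with ATRA were high and both without it low. The centred pileup ratio was 1.63 (interval 1.49 to 1.79) for ATRA against DMSO and 1.32 (1.20 to 1.44) for the combination against Corin. The local background moved as well, from 34.7 and 37.2 without ATRA to 53.2 and 54.4 with it, so that the fold was 20.8, 23.9, 19.9 and 21.9 and its centred ratio for ATRA was 0.912 (0.833 to 0.9998). Corin alone gave a centred pileup ratio of 1.12 and a centred fold ratio of 1.01. The 250 bases before the start, chr16:31259725-31259974 on the plus strand (RefSeq, GRCh38.p14), and 200 bases around the summit of the region 15.8 kb upstream, chr16:31244098-31244297 (hg38, plus strand), are shown because they hold the highest promoter fold of the 6 genes and the only ITGAM region whose pileup passed the limit for ATRA in both pairs of lists. Capitals mark the PU.1 core GAGGAA and the PU.1/ETS form GGAAGT on either strand.
ITGAM promoter: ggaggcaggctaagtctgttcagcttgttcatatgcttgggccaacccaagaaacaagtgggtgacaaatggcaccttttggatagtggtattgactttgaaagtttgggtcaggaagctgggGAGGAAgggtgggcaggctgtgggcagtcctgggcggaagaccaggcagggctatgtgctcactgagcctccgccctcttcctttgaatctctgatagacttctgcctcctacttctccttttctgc
ITGAM -15.8 kb: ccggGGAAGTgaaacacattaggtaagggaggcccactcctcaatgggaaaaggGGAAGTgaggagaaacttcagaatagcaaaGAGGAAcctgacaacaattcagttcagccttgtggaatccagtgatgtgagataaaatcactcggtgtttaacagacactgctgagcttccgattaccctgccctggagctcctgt
The promoter stretch held 1 PU.1 core and 2 SP/KLF motifs, which are not capitalised, and the upstream window 1 core and 2 PU.1/ETS forms. PU.1 is the lineage factor of myeloid cells.

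No region of ITGAM away from the promoter met the rule for named regions, so those that follow were chosen after their values were seen. The region 15.8 kb upstream (chr16:31243731-31244706, between genes) had folds of 14.2 in DMSO, 20.3 in ATRA, 12.1 in Corin and 16.9 in the combination, with pileups of 315, 575, 262 and 504. Its centred pileup ratio passed 1.5 for ATRA in both pairs of lists, at 1.70 (1.48 to 1.96) against DMSO and 1.59 (1.36 to 1.85) for the combination against Corin, while its centred fold ratios were 1.14 and 1.30. The region 6.1 kb upstream (chr16:31253160-31254363) had pileups of 413, 556, 681 and 620, with Corin against DMSO at 1.81 (1.59 to 2.04) and the combination against ATRA at 1.12. Its pileup was highest in the list with Corin alone. Its folds were 16.5, 19.4, 17.7 and 17.2. Against DMSO the centred fold ratio was 0.932 (0.820 to 1.06) for ATRA and 1.14 for Corin. The intronic region 42.3 kb downstream of the start had pileups of 566, 599, 604 and 568 and stayed within 1/1.5 and 1.5 in every comparison. In the ITGAM window 4 regions were called in ATRA alone, 3 in DMSO alone and 3 in Corin alone, counts likewise without a background share. The strongest of those in ATRA alone lay 42.4 kb upstream, at the promoter of PYDC1 and inside TRIM72, with a fold of 7.05.

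ITGAX (ENSG00000140678.17, chr16:31355134-31382999, plus strand), which encodes CD11c of macrophages and dendritic cells, showed Corin rather than ATRA as the larger movement at its promoter. The pileup was 552 in DMSO, 740 in ATRA, 1044 in Corin and 1390 in the combination, and the fold 7.40, 7.06, 10.0 and 9.64. Both lists with Corin were high, and the counting intervals of their folds did not overlap those without it. The centred pileup ratio was 2.07 (1.87 to 2.30) for Corin against DMSO and 1.89 (1.73 to 2.07) for the combination against ATRA. In fold these ratios were 1.44 (1.30 to 1.60) and 1.73 (1.58 to 1.89), the second past the limit (7.87% of coding promoters shared by those lists were). ATRA against DMSO gave 1.249 in pileup and 0.756 in fold, and so differs in direction between the measures.

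Just upstream, the order turned. The region 2.6 kb before the ITGAX start (chr16:31351958-31353043) had pileups of 565, 1247, 543 and 944 and folds of 7.56, 11.5, 5.29 and 6.37. It was high in both lists with ATRA in pileup and highest with ATRA alone in both measures. Its summit lay within 4 bp in DMSO, ATRA and the combination and 407 bp away from the DMSO summit in Corin. Its centred pileup ratio for ATRA was 2.06 (1.86 to 2.28) against DMSO and 1.43 (1.29 to 1.60) in the presence of Corin, and the region 4.7 kb upstream gave 1.84 and 1.38. The centred fold ratios were nearer to 1, at 1.20 and 1.12 for the first and at 1.06 and 1.07, with intervals including 1, for the second. These were chosen after their values were seen. The 200 bases around the summit of the nearer one, chr16:31352477-31352676 (hg38, plus strand), which overlap an exon of the long non-coding gene ENSG00000289930, are shown with the same capitals as above because both motifs overlap there.
ITGAX -2.6 kb: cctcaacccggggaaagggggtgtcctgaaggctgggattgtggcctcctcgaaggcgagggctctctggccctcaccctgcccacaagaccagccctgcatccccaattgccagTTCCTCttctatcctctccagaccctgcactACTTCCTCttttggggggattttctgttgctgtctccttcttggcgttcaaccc
The window held 2 PU.1 cores and 1 PU.1/ETS form. By the naming rule ITGAX had 1 region, 5.3 kb downstream at an internal start, with folds of 2.15 in DMSO, 4.51 in ATRA and 2.21 in the combination and no call in Corin. Its centred fold ratio for ATRA was 1.66 (1.16 to 2.43) and its centred pileup ratio 1.47, at pileups of only 50, 79 and 65.

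ITGAL (ENSG00000005844.19, chr16:30472658-30523567, plus strand) encodes CD11a, the alpha chain of LFA-1, through which T cells and monocytes bind ICAM1. Its promoter was the one of the 6 that was lower after ATRA by both measures. The pileup was 701 in DMSO, 508 in ATRA, 943 in Corin and 889 in the combination, and the fold 11.4, 9.62, 12.3 and 10.9. For ATRA against DMSO the centred ratio was 0.670 in fold and 0.675 in pileup, both just inside the lower limit, and the combination against Corin gave 0.822 and 0.778. For Corin the ratios lay above 1, at 1.15 in fold and 1.47 in pileup against DMSO and 1.43 and 1.76 for the combination against ATRA. Coding promoters as a class also stood above 1 there. Their medians were 1.05 in fold and 1.08 in pileup for Corin against DMSO, and 1.21 and 1.19 for the combination against ATRA. In that last comparison 13.6% of coding promoters passed the limit upward in pileup, as ITGAL did.

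Of the regions before and inside ITGAL, a pair named by the rule stood lower with ATRA and higher with Corin, past the limit for ATRA only at the second. The region 3.0 kb upstream (chr16:30469301-30469925) had folds of 3.03, 2.82, 5.17 and 4.79 and pileups of 189, 150, 403 and 407. Both lists with Corin were high: the centred fold ratio was 1.81 (1.52 to 2.17) against DMSO and 2.15 (1.78 to 2.62) for the combination against ATRA. For ATRA this region stayed inside the limit. Its centred fold ratios were 0.738 against DMSO and 0.865 (0.752 to 0.995) against Corin, and in pileup 0.740 and 0.833. The region 25.2 kb downstream, at an internal ITGAL start (chr16:30497371-30498455), had folds of 6.13, 3.46, 9.60 and 4.73 and pileups of 113, 34, 172 and 70. It was low in both lists with ATRA, at centred fold ratios of 0.448 against DMSO and 0.459 against Corin, and higher with Corin, at 1.66 and 1.73. It thus passed the fold limit in both pairs of lists for each compound, downward for ATRA and upward for Corin. The regions 13.3, 16.7, 17.6 and 19.3 kb downstream, chosen after their values were seen, were not both lower with ATRA and higher with Corin in pileup. In fold, of these, only the region 19.3 kb downstream was. Weaker regions inside the gene, not called in the combination, did have this order against DMSO. At 40.8 kb downstream the centred ratios were 0.432 for ATRA and 1.34 for Corin in pileup, and 0.935 and 1.29 in fold. At 7.5 kb downstream they were 0.906 and 1.004 in pileup, and 0.959 and 1.06 in fold. The region 16.7 kb downstream, at another internal start, had pileups of 350, 686, 325 and 526, with centred pileup ratios of 1.83 for ATRA and 1.02 for Corin against DMSO and centred fold ratios of 1.13 and 1.05. In the regions 13.3 and 17.6 kb downstream the centred pileup ratio was 1.20 and 1.18 for ATRA and 0.753 and 0.691 for Corin, while both compounds gave centred fold ratios below 1, at 0.723 and 0.744 for ATRA and 0.866 and 0.724 for Corin. The intronic region 19.3 kb downstream had 1.08 for ATRA and 1.44 for Corin in pileup and 0.685 and 1.44 in fold. There the combination against Corin gave 1.01 in pileup and 0.777 in fold, and against ATRA 1.41 and 1.66, the last past the limit.

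A different pattern was found 32.5 kb upstream of ITGAL, nearer to the start of SEPHS2 (chr16:30440070-30440460). The region was called with ATRA at a fold of 10.7 (9.13 to 12.4) and a pileup of 167, in the combination at 2.98 and 115, and in neither list without ATRA. The region 22.8 kb upstream was called in DMSO and ATRA, at folds of 2.86 and 4.87, and in neither list with Corin. The region 73.6 kb downstream, nearer to ZNF747 and chosen after its values were seen, had folds of 5.27, 15.5, 2.37 and 3.93 and pileups between 42 in Corin and 245 in ATRA. In fold it was the mirror of the internal start: its centred fold ratio was 2.33 and 1.54 for ATRA in the 2 pairs of lists and 0.477 and 0.320 for Corin. In pileup it was so for Corin, at 0.414 and 0.275. For ATRA the centred pileup ratios were 2.06 and 1.32, the second short of the limit with an interval including 1 (0.882 to 1.98). The 200 bases around the summits of the regions 32.5 and 3.0 kb upstream, chr16:30440107-30440306 and chr16:30469610-30469809 (hg38, plus strand), are shown since one appeared with ATRA and the other was high with Corin. Capitals mark the PU.1 core, the PU.1/ETS form, the C/EBP motif TTGCNNAA and the RUNX motif TGTGGT on either strand.
ITGAL -32.5 kb: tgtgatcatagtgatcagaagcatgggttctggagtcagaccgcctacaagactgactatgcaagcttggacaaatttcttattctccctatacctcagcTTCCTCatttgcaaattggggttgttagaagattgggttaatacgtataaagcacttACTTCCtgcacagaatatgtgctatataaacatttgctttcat
ITGAL -3.0 kb: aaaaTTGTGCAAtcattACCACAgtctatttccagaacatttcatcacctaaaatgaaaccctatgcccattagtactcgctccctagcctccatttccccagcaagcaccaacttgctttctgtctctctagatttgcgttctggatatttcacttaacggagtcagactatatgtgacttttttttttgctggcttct
The first held PU.1 letters only, and the second 1 C/EBP and 1 RUNX motif and no PU.1 letters.

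ITGAD (ENSG00000156886.12, chr16:31393335-31426505, plus strand) encodes CD11d, an alpha chain of tissue macrophages. Its promoter was the weakest of the 6, with folds of 2.88, 3.72, 3.05 and 2.42 and pileups of 52, 63, 69 and 75. The counting intervals of the ITGAD promoter ratios included 1, so no difference was detectable at this depth. A pair of places beside it was named by the rule. An intronic region 2.5 kb downstream (chr16:31395699-31396081) was called in ATRA at a fold of 5.05 (4.42 to 5.74) and in the combination at 3.04, with pileups of 231 and 127, and in neither list without ATRA. A region 6.4 kb upstream (chr16:31386618-31388843) was called at 2.86 in DMSO, 4.93 in Corin and 4.83 in the combination, with pileups of 72, 206 and 279, and not in ATRA. Its centred fold ratio for Corin was 1.83 (1.40 to 2.44), its centred pileup ratio 3.13, and it widened from 610 bp in DMSO to 1542 bp in Corin and 2226 bp in the combination. A region 58.6 kb downstream, nearer to ARMC5, was called in DMSO and ATRA at 5.65 and 5.85 and in neither list with Corin. The summits of the first pair are shown, chr16:31395739-31395938 and chr16:31386859-31387058 (hg38, plus strand), with capitals as above and for the retinoic acid half-site AGGTCA.
ITGAD +2.5 kb: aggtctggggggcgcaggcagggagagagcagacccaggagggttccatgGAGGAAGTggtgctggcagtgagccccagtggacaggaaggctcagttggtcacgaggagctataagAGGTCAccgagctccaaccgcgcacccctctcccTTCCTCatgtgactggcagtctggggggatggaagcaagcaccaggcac
ITGAD -6.4 kb: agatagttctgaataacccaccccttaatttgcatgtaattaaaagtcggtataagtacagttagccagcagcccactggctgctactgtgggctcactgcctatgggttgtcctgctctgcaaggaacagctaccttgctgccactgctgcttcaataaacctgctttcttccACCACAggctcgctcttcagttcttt
The region seen with ATRA held 2 PU.1 cores, 1 PU.1/ETS form overlapping one of them and 1 half-site, and the region seen without ATRA alone held 1 RUNX motif.

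ITGB2 (ENSG00000160255.19, chr21:44885953-44931989, minus strand) encodes CD18, the beta chain that all CD11 chains need to reach the surface. Its promoter had pileups of 660, 894, 493 and 754 and folds of 6.64, 7.93, 6.21 and 7.53. Both lists with ATRA were above both without it, at centred pileup ratios of 1.26 (1.14 to 1.40) and 1.26 (1.12 to 1.42), short of the limit, while the centred fold ratios were 0.948 and 1.13. More movement was seen inside the gene. The region 6.6 kb downstream, at an internal start (chr21:44913840-44915494), had pileups of 440, 966, 500 and 944, and the region 12.7 kb downstream in an intron (chr21:44908002-44908641) had 189, 375, 146 and 321. In both, each list with ATRA had a higher pileup than each without, with centred ratios of 2.05 and 1.56 for the first and 1.85 and 1.81 for the second against DMSO and against Corin. A region 42.0 kb downstream, beyond the end of the gene and nearer to PTTG1IP, gave 1.51 and 1.52. In fold none of the 3 passed the limit: the folds were 9.12, 13.6, 11.4 and 13.1 for the first and 5.71, 10.2, 5.53 and 8.70 for the second. The centred fold ratios were 1.19 and 1.08, 1.42 and 1.47, and, at 42.0 kb, 1.07 and 1.09. These 3 were chosen after their values were seen.

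By the naming rule, the intronic region 17.7 kb downstream (chr21:44902910-44903602) was called in ATRA at a fold of 6.64 (5.78 to 7.59) and in the combination at 3.44, with pileups of 212 and 116, and in neither list without ATRA. A region 6.8 kb upstream of the canonical start, at another ITGB2 start (chr21:44927267-44928218), went the other way, with folds of 6.77, 5.49, 7.19 and 5.47 and a centred fold ratio of 0.643 (0.575 to 0.717) for ATRA against DMSO and 0.709 for the combination against Corin. The start used by the canonical transcript and the one upstream of it stood on opposite sides of 1 in pileup after ATRA, at 1.26 and 0.687 against DMSO and 1.26 and 0.770 against Corin. In fold both starts lay below 1 against DMSO, at 0.948 and 0.643, and on opposite sides against Corin, at 1.13 and 0.709. A region 23.0 kb downstream had folds of 2.94, 2.88 and 1.97 in DMSO, ATRA and the combination and no call in Corin. The 200 bases around the summit of the region called only with ATRA, chr21:44903075-44903274 (hg38, plus strand), follow, with the PU.1/ETS form in capitals.
ITGB2 +17.7 kb: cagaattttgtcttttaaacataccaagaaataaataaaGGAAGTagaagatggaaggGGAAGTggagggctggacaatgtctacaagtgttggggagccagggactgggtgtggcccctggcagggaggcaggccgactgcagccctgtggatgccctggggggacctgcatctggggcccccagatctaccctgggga
The window held 2 PU.1/ETS forms and no PU.1 core.

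**Figure D4:**
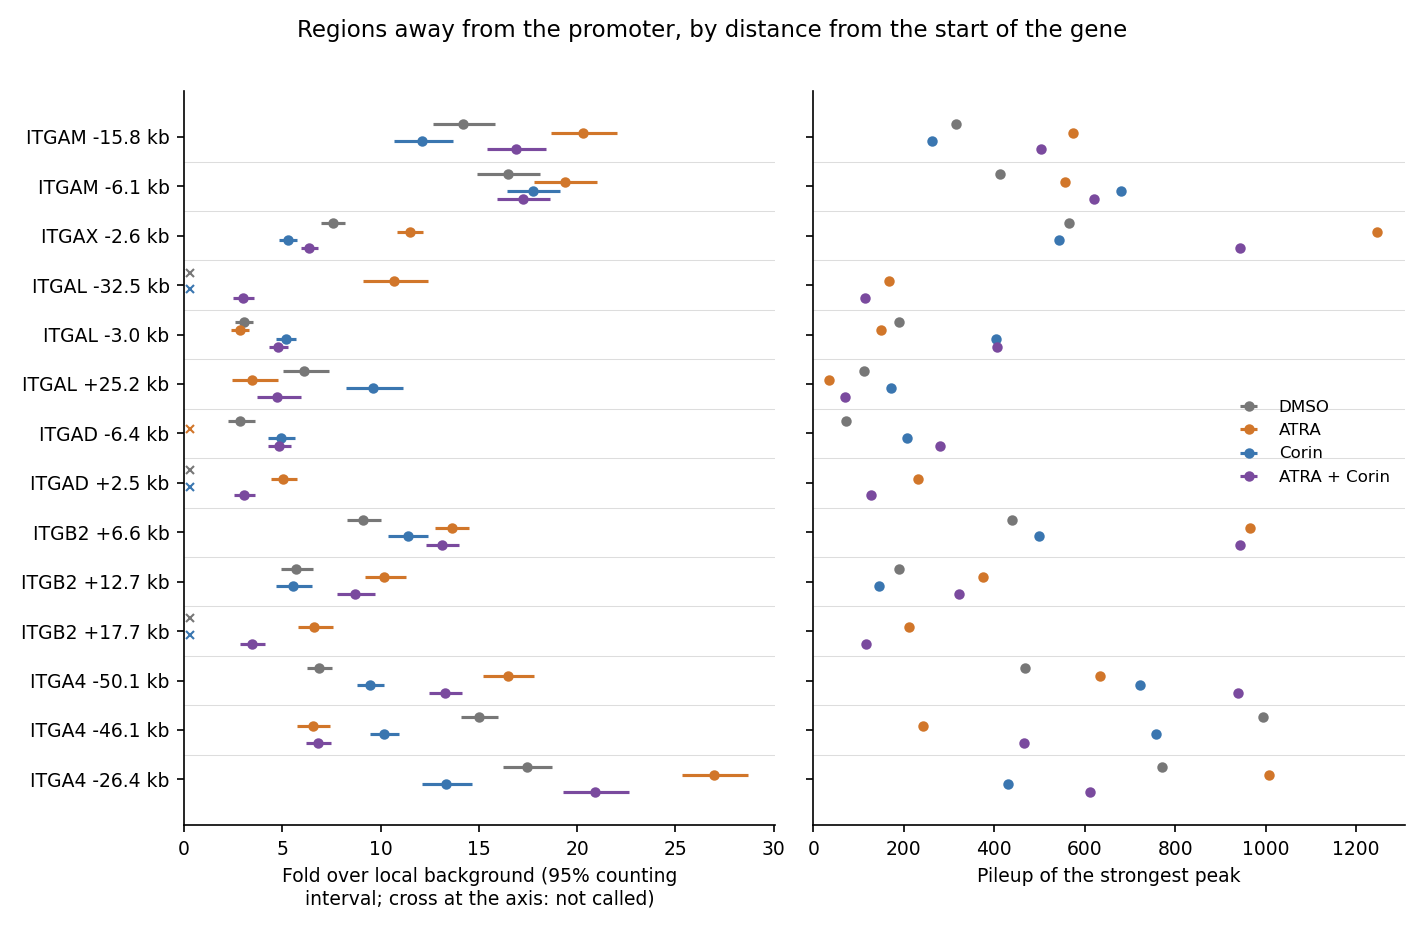
Regions away from the promoters. The left axis is the fold over local background with 95% counting intervals, a cross at the axis marking a list without a call, and the right axis is the pileup of the strongest peak; colours are the 4 lists. At ITGAL 32.5 kb upstream, ITGAD 2.5 kb downstream and ITGB2 17.7 kb downstream only the lists with ATRA have points, and at ITGA4 46.1 kb upstream the DMSO point, 995, is the farthest right.

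ITGA4 (ENSG00000115232.14, chr2:181457202-181538940, plus strand), the gene of the alpha chain CD49d, held regions with large differences far upstream and inside the gene. Its promoter had pileups of 2456, 2742, 2267 and 2952 and folds of 11.8, 11.5, 13.6 and 14.2. In pileup the 5 centred ratios ran only from 1.01 to 1.08, whereas in fold the combination against ATRA reached 1.56 (1.48 to 1.64) with the local background at 237 in ATRA and 206 in the combination. The region 46.1 kb upstream (chr2:181410904-181411785) had folds of 14.99, 6.54, 10.2 and 6.81 and pileups of 995, 242, 757 and 465. Both lists with ATRA were low: the centred fold ratio was 0.346 (0.298 to 0.397) against DMSO and 0.623 (0.553 to 0.699) against Corin, and in pileup 0.227 and 0.507. Its neighbour 50.1 kb upstream (chr2:181406856-181407843) had folds of 6.89, 16.5, 9.45 and 13.3 and pileups of 468, 634, 723 and 939. It was lowest in DMSO, with centred fold ratios of 1.90 (1.68 to 2.14) with ATRA, 1.46 with Corin and 1.89 with both. The centred pileup ratios were 1.26, 1.69 and 1.80, so that the limit was passed by ATRA in fold and by Corin in pileup. The windows around both summits, chr2:181411152-181411351 and chr2:181407232-181407431 (hg38, plus strand), are shown as neighbours that moved in opposite ways. The second overlaps an exon of the long non-coding gene LINC01934. Capitals are those of the ITGAL windows.
ITGA4 -46.1 kb: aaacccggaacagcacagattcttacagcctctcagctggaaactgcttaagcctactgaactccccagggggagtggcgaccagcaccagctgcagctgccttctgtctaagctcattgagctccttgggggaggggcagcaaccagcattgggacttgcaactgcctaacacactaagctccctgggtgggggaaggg
ITGA4 -50.1 kb: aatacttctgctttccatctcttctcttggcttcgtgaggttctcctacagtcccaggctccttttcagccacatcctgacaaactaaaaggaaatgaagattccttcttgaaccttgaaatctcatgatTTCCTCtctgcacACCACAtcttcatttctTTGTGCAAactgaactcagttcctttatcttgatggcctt
The first held none of these motifs, and the second 1 PU.1 core, 1 C/EBP motif and 1 RUNX motif.

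Between them and the gene, the region 26.4 kb upstream (chr2:181430308-181431338) was lower with Corin in pileup only, at 770, 1008, 431 and 611 and centred pileup ratios of 0.613 (0.543 to 0.690) against DMSO and 0.610 (0.550 to 0.675) against ATRA. In fold it stayed within the limit, at 17.4, 27.0, 13.4 and 20.9, with centred ratios of 0.812 and 0.981, the interval of the second including 1 (0.885 to 1.09). The region 18.9 kb upstream was lower with ATRA, at pileups of 88, 43, 65 and 28, centred pileup ratios of 0.455 and 0.355 and centred fold ratios of 0.641 and 0.424. These regions were chosen after their values were seen. The rule also named a region 37.8 kb upstream, with folds of 2.18 in DMSO, 8.11 in ATRA and 3.82 in the combination, and one 1.7 kb downstream at an internal start, with 1.48, 3.07 and 1.76, neither called in Corin. For each the centred fold ratio for ATRA passed the limit, at 2.95 (2.00 to 4.54) and 1.65 (1.44 to 1.89), as did the centred pileup ratio, at 2.04 and 2.20. Inside the gene, the intronic region 60.7 kb downstream (chr2:181517812-181518456), chosen after its values were seen, had folds of 1.92, 5.77, 3.36 and 4.30 and pileups of 46, 82, 72 and 70. It was lowest in DMSO, with centred fold ratios of 2.38 with ATRA, 1.85 with Corin and 2.19 with both and centred pileup ratios of 1.66, 1.71 and 1.36. Within ITGA4 and its upstream stretch, then, regions on either side of the limit lay beside each other, and the promoter itself held its pileup.

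The design gives each compound in 2 pairs of lists that share none: ATRA against DMSO and the combination against Corin, and Corin against DMSO and the combination against ATRA. Of the 62 regions called everywhere, 4 passed the pileup limit upward for ATRA in both pairs (9.19% of all such regions did) and 3 downward (7.6%). Those upward were the ITGAM region 15.8 kb upstream and the 3 ITGB2 regions, and those downward the ITGAL region 25.2 kb downstream and the ITGA4 regions 46.1 and 18.9 kb upstream. For Corin 3 passed upward (5.06%), the ITGAX promoter and the ITGAL regions 3.0 kb upstream and 25.2 kb downstream, and 2 downward (8.62%), the ITGAL region 73.6 kb downstream and the ITGA4 region 26.4 kb upstream. By fold the counts were 1 upward and 3 downward for ATRA (6.13% and 3.31%) and 2 and 1 for Corin (2.09% and 5.98%). Of the 141 regions, 3 were called only with ATRA present (3.2% of all regions) and 8 only without it (4.24%), of which 6 lay at ITGA4. The 3 had −log10 p values up to 113, and the 8 were weak, at most 17.1. With Corin only, 3 were called (1.51%), and without it only, 3 (5.14%).

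**Figure D5:**
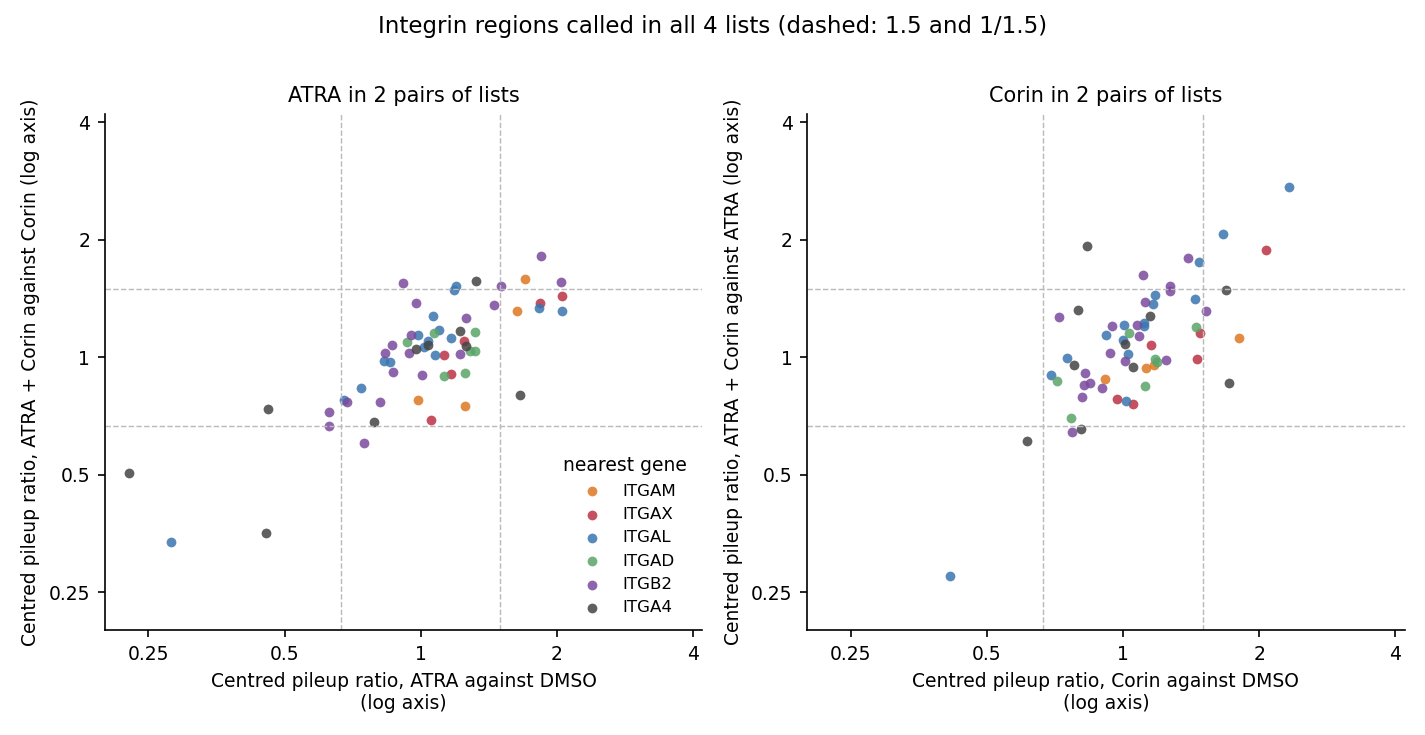
Centred pileup ratios of the 62 regions called in all 4 lists. The left panel sets ATRA against DMSO beside the combination against Corin and the right panel Corin against DMSO beside the combination against ATRA, both axes logarithmic, dots coloured by the nearest of the 6 genes and dashed lines at the limits. In the upper right corner of the left panel lie regions of ITGAM and ITGB2, and in its lower left corner regions of ITGA4 and ITGAL.

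Of 51 other genes of integrin biology, 38 had a promoter region in all 4 lists and 11 in none, ITGB7, the other partner of ITGA4, being among the latter. In the DMSO list 39 of the 51 had one, where 62.4% of all coding genes did. ITGB1 had folds of 12.8, 11.5, 14.3 and 13.3. For ATRA against DMSO 3 of 39 passed the fold limit upward, ITGA10 at 1.71, TYROBP at 1.61 and ITGA2B at 1.61, and 1 downward, APBB1IP, whose product links RAP1 to talin, at 0.586. Against DMSO, Corin took 0 of 38 past it upward and 2 downward, ITGA2B at 0.552 and FCER1G, a signalling adaptor, at 0.652. For the combination 1 of 39 passed upward, ITGA3 at 2.10, and 2 downward, ITGA2B at 0.653 and ITGB8 at 0.659. The combination against ATRA gave 4 upward, ITGA7 at 1.74, APBB1IP at 1.55, ICAM2 at 1.53 and ITGB5 at 1.52, and 3 downward, ITGA2B at 0.414, ITGA11 at 0.610 and ITGA10 at 0.641. The combination against Corin gave 1 of 38 upward, ITGA3 at 1.54, and 0 downward. The shares over all coding promoters are those given above, with 7.87% upward and 2.31% downward for the combination against ATRA and 1.47% upward and 0.957% downward for the combination against Corin. By pileup the counts differed. For ATRA 5 of 39 passed upward and 0 downward; TYROBP stood at 2.44 and ITGA2B at 1.54, but ITGA10 at 0.938 and APBB1IP, lower in fold, at 1.33. For Corin 4 of 38 passed upward, among them ITGA3 at 2.41, ICAM2 at 2.12 and ITGB5 at 2.04, and 2 downward, ITGA2B and FCER1G as in fold. For the combination 5 of 39 passed upward and 2 downward. Against ATRA it gave 8 upward, led by ICAM2 at 2.60 and ITGB5 at 2.51, and 1 downward, ITGA2B at 0.437 (13.6% and 2.26% of coding promoters), with ITGA11 at 1.03 and ITGA10 at 0.908. Against Corin it gave 2 upward and 1 downward (2.73% and 2.57%). Among ligands of the CD11 receptors, ICAM1 had folds of 7.60, 11.5, 7.86 and 8.07 and ICAM3 of 13.5, 24.6, 12.5 and 17.9. Neither passed the limit in fold, while ICAM1 passed it in pileup for ATRA at 1.51 and for the combination at 1.60.

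Across the 141 regions, 200-base windows around the strongest summit held the PU.1 core in 45 (31.9%, against 30.4% of all windows) and the PU.1/ETS form in 37 (26.2%, against 27.6%). RUNX letters were in 34 (24.1%, against 20.7%), the C/EBP motif in 17 (12.1%, against 14.5%), the retinoic acid half-site in 20 (14.2%, against 13.0%) and the SP/KLF motif GGGCGG in 20 (14.2%, against 11.4%). The AP-1 motif TGANTCA was in 9 (6.38%, against 12.2%), the ETS motif CCGGAA in 8 (5.67%, against 4.44%) and the MYB motif AACNGTT in 4 (2.84%, against 3.33%). Pairs of half-sites spaced by 5 or by 2 bases, the forms bound by retinoic acid receptors, were in 0, and in 0.0180% and 0.0105% of all windows. Both strands were searched, and the PU.1 and ETS motifs can overlap, as in the ITGAD window. A match is a string of letters and not a bound site.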

How the data were processed

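ATAC-seq of U-937 cells was available as 1 peak list for each of 4 groups of 2 samples (DMSO, ATRA, Corin, combination). The submitters' processing notes name cutadapt, Bowtie2, SAMtools, Picard, MACS2 and hg38, with no versions. The lists were deposited as made from both samples of a group, so each −log10 p, −log10 q and fold over local background is the authors' pooled value. Depth per sample is not given in the sources used here.

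Peaks on chromosomes 1 to 22, X and Y were joined over the lists wherever they overlapped by at least 1 bp, and the fold and −log10 p of a region are those of its strongest peak. Pileup and local background were solved from the fold, (pileup + 1)/(background + 1), and the Poisson p, and came out whole within 0.05 for at least 99.96% of peaks of every list. Intervals are exact Poisson, conditional binomial for ratios and Wilson for shares. Counts of regions were checked with bedtools 2.31.1 and the solver was tested on simulated data (Python 3.11.15, numpy 2.4.6, pandas 2.3.3, scipy 1.17.1). The PU.1/ETS form and the single half-site were added to the motifs after the data were seen.

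Regions named are, for each gene, up to 4 with the highest −log10 p among 2 kinds. The first are regions not at another gene's promoter, called in some lists only and in the stronger 50% of a list. The second are regions nearest to the gene's start and past a centred fold ratio of 1.5 against DMSO. Of the other integrin genes, those past 1.5 are named. The members, lists and rules were chosen with earlier results of these data known. RefSeq promoters (GRCh38.p14) were matched for 2 of the 6 genes, ITGAM and ITGA4, and not for ITGAX, ITGAL, ITGAD and ITGB2. Alternatives covered thresholds, overlap, gaps, windows, centring, pileups, limits and equal list lengths.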

Additional observations from a re-analysis of the deposited data

How the results depend on the processing

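No paired analysis was possible because each group has 1 pooled list. The same holds for leaving out a sample. Of the main values, those not listed stayed within their counting interval, or counts within 1.5 times, under the alternatives run. For the leukocyte integrin promoters and the regions named by the rule, no fold ratio past the limit of 1.5 crossed 1. Among the other integrin genes, APBB1IP and ITGA10 for ATRA and ITGA11 for the combination against ATRA did so from pileups. Their centred fold ratios were 0.586, 1.71 and 0.610, and their centred pileup ratios 1.33, 0.938 and 1.03. Several leukocyte integrin promoter ratios short of the limit also crossed 1. From pileups these were, for ATRA, those of ITGAM, ITGAX, ITGB2 and ITGA4, and for the combination those of ITGAL (0.937) and ITGAD (0.824). For the combination against ATRA they were those of ITGAM, ITGAD (0.820) and ITGB2, and against Corin those of ITGAX (0.897) and ITGA4 (0.973). With the other centrings those of ITGAM for each comparison listed below, and of ITGB2 on promoters, crossed 1. Requiring 50% overlap, merging peaks within 150 bp, counting a region as lost or gained only without a neighbour within 500 bp in the other list, taking the highest fold, and the lowest −log10 p of the DMSO list applied to all lists (chosen after seeing the data) moved none of them. The cause of each move below was not tested.

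With −log10 p of at least 5, 11.2% of combination regions were gained against ATRA (19.1% as reported). With −log10 q of at least 5 this was 7.89%, 19.8% were lost with ATRA (30.9%), 19.8% with Corin (29.1%) and 14.7% from Corin to the combination (23.3%). With lists cut to equal length the losses were 20.3% for ATRA, 15.2% for Corin, 11.4% for the combination (30%) and 8.22% from ATRA to the combination (20.9%).

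Centred on promoters, 1.39% of shared regions passed upward for the combination against ATRA (9.72%). Promoter fold ratios for ATRA were then 1.05 for ITGAM (0.912), 0.870 for ITGAX (0.756), 0.770 for ITGAL (0.670), 1.09 for ITGB2 (0.948) and 0.894 for ITGA4 (0.777), and for the combination against ATRA 0.952 for ITGAM (1.16), 1.42 for ITGAX (1.73), 1.18 for ITGAL (1.43), 0.988 for ITGB2 (1.20) and 1.28 for ITGA4 (1.56). Centred within 20 strength classes, ATRA gave 1.03 for ITGAM and 0.905 for ITGA4, and the combination against ATRA 0.958 for ITGAM, 1.53 for ITGAX, 1.07 for ITGB2 and 1.29 for ITGA4. The share of other integrin genes lower was then 0% for the combination against DMSO (5.13%) and 2.56% against ATRA (7.69%).

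With the gene body alone or with 10 kb, 0% of shared regions were lower with Corin (2.56%). With a looser limit of 5/4 or 4/5, 25% were lower with ATRA (6.58%), 16.7% higher with Corin (5.13%), 16.9% higher and 14.3% lower with the combination (7.79% and 5.19%), 29.2% higher against ATRA (9.72%), and 13.0% higher and 14.5% lower against Corin (2.90% and 5.80%). Of the other integrin genes 38.5% were lower with ATRA (2.56%), 13.2% higher with Corin (0%) and 43.6% higher for the combination against ATRA (10.3%). With a limit of 2, the shares were 3.95% higher and 2.63% lower with ATRA, 0% higher with Corin, 1.30% higher with the combination, 1.39% higher and 4.17% lower against ATRA, and 0% higher against Corin.

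From pileups, 15.8% of shared regions were lower with ATRA (6.58%), 22.1% with the combination (5.19%), and 11.6% higher against Corin (2.90%). Promoter ratios from pileups for ATRA were 1.63 for ITGAM, 1.249 for ITGAX, 1.26 for ITGB2 and 1.04 for ITGA4. For Corin they were 2.07 for ITGAX, 1.47 for ITGAL, 0.818 for ITGB2 and 1.01 for ITGA4. For the combination they were 1.46 for ITGAM, 2.25 for ITGAX, 1.14 for ITGAL, 1.29 for ITGAD and 1.08 for ITGA4, against ATRA 0.940 for ITGAM, 1.76 for ITGAL, 1.20 for ITGAD, 0.848 for ITGB2 and 1.08 for ITGA4, and against Corin 1.32 for ITGAM, 1.10 for ITGAX and 1.07 for ITGA4. Of the other integrin genes 0% were lower with ATRA (2.56%), 10.5% higher with Corin (0%) and 2.56% lower for the combination against ATRA (7.69%). Of the ratios of the regions named by the rule, 23 moved and 22 did not. Over all alternatives run for those regions, pileups included, 34 values moved and 146 did not.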
